A study of Mus musculus with 6 samples.

Results

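Most of the genes described here encode proteins of the cytosolic ribosome, and all were chosen by symbol alone: names of the form Rpl, Rps or Rplp followed by a number and, where present, a, x, l, l1 or al, together with Rpsa, with the pseudogenes named -ps left out. The rule found 86 of the 51802 gene symbols in the files. They were 30 proteins of the small (40S) subunit, 43 proteins of the large (60S) subunit, 3 proteins of the P stalk, and 10 paralogues whose symbols end in l, l1 or al. Among these paralogues, Rpl6l, Rps12l1 and Rps4l are annotated as pseudogenes. In the GENCODE M21 annotation of the mouse genome (GRCm38) they lay on 19 chromosomes, with the most, 15, on chromosome 7.

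Bulk RNA-seq was run on whole cochleae of C57/BL6J mice at 2 months of age, in 3 wildtype samples (replicates 3, 4 and 5) and 3 Pou4f3(Δ/+) samples (replicates 1, 2 and 3). Pou4f3(Δ/+) mice carry, on 1 of their copies of Pou4f3, a knock-in allele with a short deletion and a single base change. Pou4f3 is a transcription factor of hair cells, a small fraction of the cells of a cochlea, whereas every cell makes ribosomes, so the values average over all cell types of the sample. The sources used here do not say how many animals or cochleae went into a sample, so p-values measure the spread between these samples only.

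Each ribosome holds 1 copy of nearly every ribosomal protein, with the P stalk proteins Rplp1 and Rplp2 as the known exception. The mRNAs of these proteins belong to the TOP class, which begins with a run of pyrimidines at the cap and is held back from translation when mTORC1 signalling falls. A few ribosomal proteins have paralogues used mainly in certain tissues, such as Rpl10l and Rpl39l in testis and Rpl3l in heart and skeletal muscle. The genome also holds a large number of processed copies of these mRNAs, and reads from such a copy and from its parent gene are hard to tell apart.

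Summed counts were between 14295069 and 17696784 per sample. Counts of Pou4f3, which include reads from either allele and so check nothing about the genotype, were 68, 72 and 88 in wildtype and 66, 97 and 52 in Pou4f3(Δ/+). The hair cell markers Myo7a, Slc26a5, Otof, Tmc1 and Pvalb were all detected, with a summed level of 166 to 185 CPM (counts scaled to the size of each library) in wildtype and 176 to 192 in Pou4f3(Δ/+). Pou4f3(Δ/+) replicates 1 and 2 stood apart in B cell markers: the summed CPM of all 8 (Cd79a, Cd79b, Ms4a1, Vpreb1, Vpreb3, Blnk, Ebf1 and Pax5, none at 0) was 590.3 and 647 there, 381 in Pou4f3(Δ/+) replicate 3, and 344 to 377 in wildtype. The same 2 samples were the highest in 5 red blood cell genes (Hba-a1, Hba-a2, Hbb-bs, Hbb-bt and Alas2, none at 0), which summed to 9852 and 11805 CPM there, 7976 in Pou4f3(Δ/+) replicate 3 and 7635 to 8677 in wildtype. The summed level of the 6 bone genes (Bglap, Bglap2, Ibsp, Col1a1, Dmp1 and Sost) was highest in wildtype replicate 5, at 2266 CPM against 1307 to 1648 elsewhere, although Bglap was lowest there (10.4 FPKM against 14.5 to 35.2). The part of these cells in the values below was not tested, and fewer cells of a type and less RNA per cell cannot be told apart in bulk samples.

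Printed first are the start windows of 6 of these genes, picked as examples with their sequences known, since the pyrimidine run at the cap is what the mRNAs are known to share. Each window covers 15 bases on either side of the transcription start in RefSeq (GRCm38.p6), 5′ to 3′ on the transcribed strand, and capitals mark the longest run of C and T that begins with a C within 5 bases of the start, where it has at least 5 bases.
Rps6 (chr4:86857353-86857382, minus strand): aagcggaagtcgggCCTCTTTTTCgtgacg
Rps27 (chr3:90213634-90213663, minus strand): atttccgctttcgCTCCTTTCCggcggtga
Rpl7a (chr2:26910792-26910821, plus strand): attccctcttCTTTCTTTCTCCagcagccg
Rpl15 (chr14:18270972-18271001, minus strand): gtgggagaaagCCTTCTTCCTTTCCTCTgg
Rpl35 (chr2:39005117-39005146, minus strand): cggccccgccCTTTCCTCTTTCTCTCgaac
Rpl24 (chr16:55966260-55966289, plus strand): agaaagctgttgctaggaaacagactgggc
The first 5 hold such a run and the Rpl24 window does not.

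RefSeq start sequences were found for 63 of the 86 genes. A run of at least 5 pyrimidines placed in this way was present in 29 of the 63 (46.03%) and in 21.2% of all genes with a start sequence. A run of at least 8 was present in 21 of the 63 (33.3%) and in 1398 of all 27025 genes with a start sequence (5.17%). The motif CTTTCC lay between 40 bases before and 50 bases after the start in 20 of the 63 (31.7%) on the transcribed strand and in 4.87% of all genes; on the opposite strand it lay in 2 of the 63 (3.17%) and in 4.70% of all genes. CTCTTT, which can overlap CTTTCC, was found in 19 of the 63 (30.2%) against 4.16% of all genes on the transcribed strand, and in 0 of the 63 against 4.06% on the opposite strand. CTTTTC was found in 9 (14.3%) against 3.86% on the transcribed strand, and in 2 against 3.49% on the opposite strand. CTTCC was found in 28 (44.4%) against 20.3% on the transcribed strand and in 18 (28.6%) against 23.2% on the opposite strand. For the 6-letter motifs, then, the larger share among these genes was on the transcribed strand. These counts describe letters near annotated starts, and a match is not a known site of action.

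**Figure D1:**
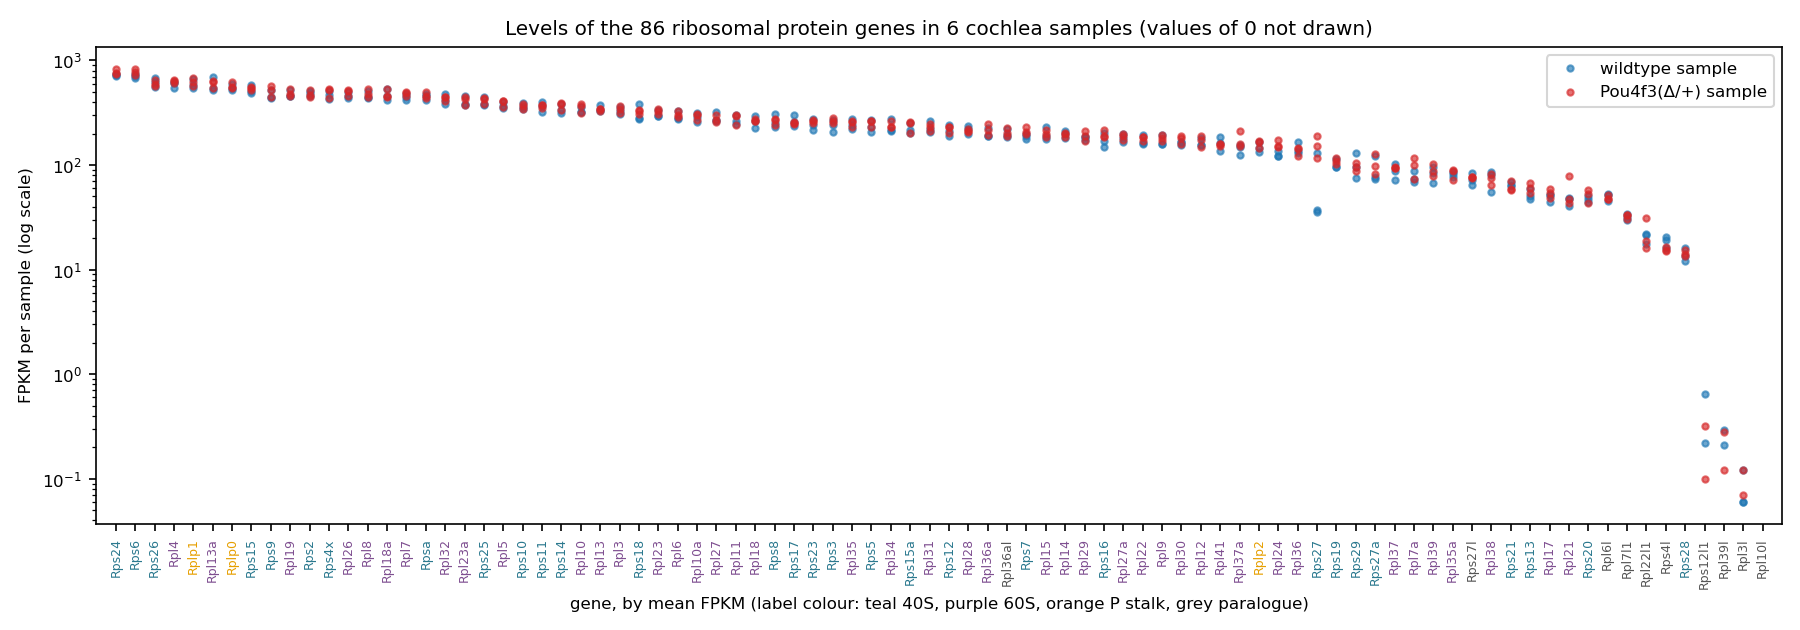
FPKM (fragments scaled to transcript length and to the sample's counted fragments, log scale) of each of the 86 genes in each of the 6 samples, ordered by mean level; blue points are wildtype and red points Pou4f3(Δ/+) samples, and label colours give the class of protein. The levels fall gradually from Rps24 (mean 753) to Rps28 (14.1), and 4 paralogues at the right end lie below 1 FPKM or at 0.

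The ribosomal protein genes were among the most abundant mRNAs of the cochlea. Their 76 members other than paralogues had mean levels, over the 6 samples, from 14.1 to 753 FPKM with a median of 250, against a median of 8.83 over all 17136 genes tested, and 61 of the 76 were among the 500 highest of the 51802 symbols. FPKM is scaled to transcript length, so the order of the genes also rests on the length used for each, which was not tested. In wildtype replicate 3, for example, Rps20 had 2082 counts and 50.8 FPKM, whereas Rpl36a had 1902 counts and 225 FPKM. The 5 highest were Rps24 (753), Rps6 (743), Rps26 (613), Rpl4 (611) and Rplp1 (610). Rps6 is the substrate of S6 kinase, and Rps26 is one of the genes mutated in Diamond-Blackfan anaemia, a failure of red cell formation. Rps28, the lowest of the 76, was at 16.2, 13.6 and 12.1 FPKM in wildtype and at 15.3, 13.4 and 14.2 in Pou4f3(Δ/+), which is 53.2-fold below Rps24. Some of the low genes, Rps28 among them, had more reads listed under copies than under the gene, as given further down.

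Other proteins with well known roles lay between these ends. Rpl5 and Rpl11, which with the 5S rRNA bind the p53 regulator Mdm2, averaged 372 ± 23.7 and 272 ± 28.4 FPKM in wildtype and 392 ± 28.2 and 279 ± 31.5 in Pou4f3(Δ/+) (SD, n = 3 each, as for the means that follow). Rps19, the gene most often mutated in Diamond-Blackfan anaemia, averaged 102 ± 11.3 and 110 ± 7.205. Rps14, whose loss marks a form of myelodysplasia, averaged 342 ± 33.8 and 368 ± 30.2. Rps3, at the mRNA entry channel, averaged 239 ± 31.4 and 264.7 ± 12.5, and Rpl13a, known also from a translational control complex, averaged 590 ± 94.6 and 598 ± 48.1. In each of these 6 genes the difference between genotypes was smaller than the larger of the SDs.

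For the P stalk, which recruits elongation factors, FPKM of Rplp0 was 593, 547 and 517 in wildtype and 543, 622 and 557 in Pou4f3(Δ/+). That of Rplp1 was 664, 580 and 551 against 567, 623 and 673, and that of Rplp2 was 165, 144 and 134 against 146, 166 and 169. Rplp2 was listed well below Rplp1 in every sample, although the proteins form heterodimers in the stalk. The groups overlapped in all 3 genes. Rpsa, a 40S protein also known as the laminin receptor precursor, was at 479, 454 and 419 FPKM in wildtype and at 438, 496 and 460 in Pou4f3(Δ/+), and overlapped as well.

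The comparison the design implies is that of the genotypes. Counts on the 86 genes made up 1.95%, 1.74% and 1.65% of all counts in wildtype (replicates in the order 3, 4, 5, here and throughout), and 1.74%, 1.95% and 1.90% in Pou4f3(Δ/+) (in the order 1, 2, 3). The groups overlapped: wildtype replicate 3 was as high as Pou4f3(Δ/+) replicate 2, and Pou4f3(Δ/+) replicate 1 as low as wildtype replicate 4. The means were 1.78% ± 0.149 and 1.86% ± 0.112 (SD, n = 3 each), a difference of 0.0819 percentage points (exact permutation test, two-sided, p = 0.5, in a design of 3 against 3 samples that cannot go below 0.1). Summed FPKM of the 30 small subunit genes was 9677, 8599 and 8209 in wildtype and 8698, 9822 and 9382 in Pou4f3(Δ/+) (exact permutation test, p = 0.4). For the 43 large subunit genes it was 12177, 10781 and 10222 against 10673, 12008 and 11786 (exact permutation test, p = 0.7).

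Of the 86 genes, 82 passed the filter on low counts; Rpl10l, Rpl39l, Rpl3l and Rps12l1 did not. None of the 82 passed an adjusted p of 0.05 in edgeR's quasi-likelihood test over all genes, where 0 of 17136 genes (0%) did so, and the smallest adjusted p among them was 0.643. DESeq2 called 0 of the 82 and 64 of all genes (0.373%), with a smallest adjusted p of 0.235 for Rpl24. An unadjusted p under 0.05 was reached in edgeR by 2 of the 82, Rpl24 and Rps27, both higher in Pou4f3(Δ/+), where 7.64% of all genes reached it and 3.5% did so upward. DESeq2 gave 3 such genes of the 82 (Rpl24, Rpl7a and Rpl37a, but not Rps27), against 6.72% of all genes, and limma-trend on log2(FPKM + 0.5) gave 3, against 7.24%. At the level of transcripts, 6 of the 267 tested transcripts of these genes had an unadjusted p under 0.05 in edgeR, against 4.14% of all 38347 transcripts. After adjustment 0 of the 267 passed 0.05 in edgeR, as did 0% of all transcripts, and 0 in DESeq2, which called 130 of all transcripts (0.339%).

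The fitted changes were small. The median log2 fold change of Pou4f3(Δ/+) over wildtype was 0.05 over the 82 genes and 0.00 over all genes tested, and 76 of the 82 lay within 0.25 of 0 on the log2 scale; the median standard error of a single gene was 0.10. Of the 82, 66 were fitted above 0, where 49.4% of all genes tested were. By class, 23 of 30 small subunit genes (median 0.09), 36 of 43 large subunit genes (median 0.04), 3 of 3 P stalk genes (median 0.06) and 4 of 6 tested paralogues (median 0.02) were above 0. These genes are not independent of each other, as the next paragraph shows. Their median was 0.14 without wildtype replicate 3, with 80 of 82 above 0, and 0.01 without wildtype replicate 5, with 44 of 82 above 0; without Pou4f3(Δ/+) replicate 2 it was 0.02, also with 44 above 0. The sign changed with at least 1 sample left out in 48 of the 82 genes.

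**Figure D2:**
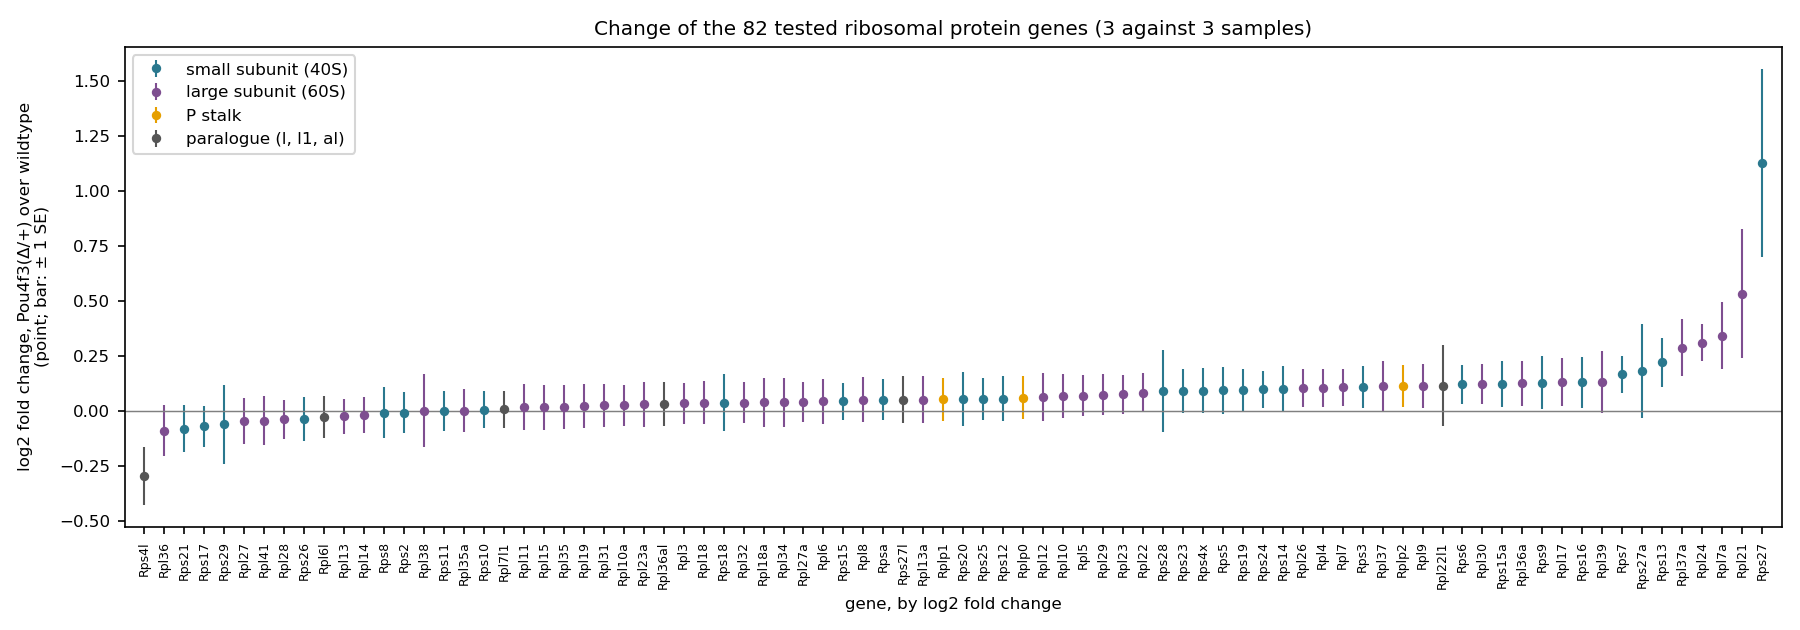
Log2 fold change of Pou4f3(Δ/+) over wildtype for the 82 tested genes, ordered by size, with bars of 1 standard error on either side (edgeR, 3 against 3 samples) and colours by class. Most genes lie close to 0 within their error; Rps27 (1.13) and Rpl21 (0.53) at the right end also have the widest bars.

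Most of the ribosomal protein genes moved together from sample to sample, in both genotypes. Relative to each gene's own mean over the 6 samples (log2 CPM, TMM-scaled), the median over the 82 genes was 0.12, -0.07 and -0.13 in the wildtype samples, and -0.07, 0.11 and 0.04 in the Pou4f3(Δ/+) samples. Wildtype replicate 3 had 74 of the 82 genes above their own mean and wildtype replicate 5, of the same genotype, had 5. Among Pou4f3(Δ/+) samples, replicate 1 had 9 of the 82 above their mean, replicate 2 had 75 and replicate 3 had 58. Over all genes tested, 49.4% to 51.9% were above their own mean in each sample, and the median deviation was between -0.003 and 0.007. Of the 82, 4 did not follow the others. Their correlation over the samples with the median of the tested genes other than paralogues was below 0: Rps4l (-0.34), Rpl7a (-0.21), Rps27 (-0.10) and Rpl37a (-0.05).

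**Figure D3:**
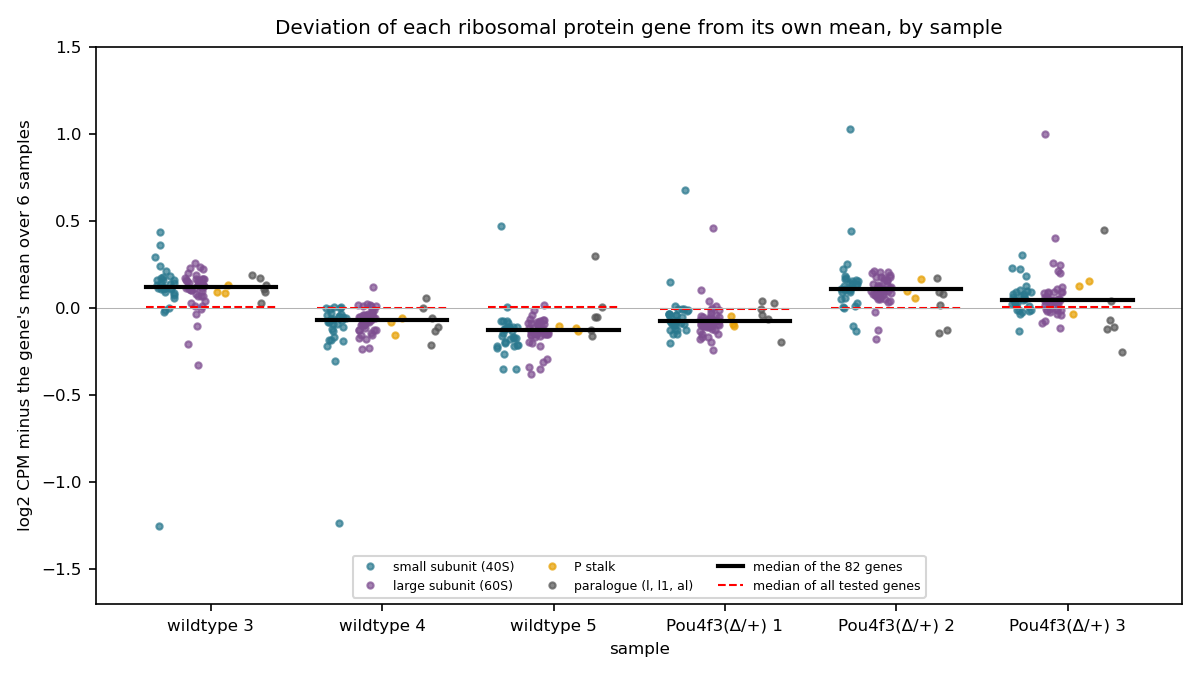
Deviation of each of the 82 tested genes from its own mean over the 6 samples (log2 CPM), by sample; each point is a gene, colours give the class, the black line is the median of the 82 genes and the dashed red line that of all tested genes. The black lines sit at 0.12, -0.07 and -0.13 in wildtype and at -0.07, 0.11 and 0.04 in Pou4f3(Δ/+), while the red lines stay near 0.

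The small and the large subunit had the same 3 samples above 0 and the same 3 below. Across the wildtype samples the median deviation of small subunit genes was 0.13, -0.07 and -0.15, and that of large subunit genes was 0.12, -0.06 and -0.13. Across the Pou4f3(Δ/+) samples it was -0.06, 0.12 and 0.05 for the small subunit and -0.09, 0.11 and 0.04 for the large. Thus wildtype replicate 3 and Pou4f3(Δ/+) replicate 2 were high for both subunits, and wildtype replicate 5 was low for both.

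Rpl24, a 60S protein (ENSMUSG00000098274, chromosome 16 from 55966275 to 55971435), had the smallest p of the 82 genes. Its FPKM was 137, 121 and 122 in wildtype and 152, 149 and 172 in Pou4f3(Δ/+). Every Pou4f3(Δ/+) sample was above every wildtype sample. The log2 fold change was 0.31 with a standard error of 0.08 (edgeR adjusted p = 0.643; before adjustment edgeR gave 0.00531), and it stayed between 0.26 and 0.37 when each sample was left out in turn. In CPM, groups did not overlap for 2 of the 82 genes, Rpl24 and Rps7, both higher in Pou4f3(Δ/+), where 6.07% of all genes tested were higher without overlap and 6.59% lower. Rps7, a 40S protein, was at 196, 191 and 176 FPKM in wildtype and at 199, 230 and 205 in Pou4f3(Δ/+), with a log2 fold change of 0.17 and a standard error of 0.09 (adjusted p = 0.658 in edgeR); without Pou4f3(Δ/+) replicate 2 it was 0.09.

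Rps27, a zinc finger protein of the 40S subunit (ENSMUSG00000090733, chromosome 3 from 90212522 to 90213651), had the largest fitted change. Its FPKM was 35.4, 37.4 and 129 in wildtype and 151, 189 and 117 in Pou4f3(Δ/+). The groups overlapped, since wildtype replicate 5 was above Pou4f3(Δ/+) replicate 3, while wildtype replicates 3 and 4 were low. The log2 fold change was 1.13 with a standard error of 0.43 (edgeR adjusted p = 0.643; before adjustment edgeR gave 0.0278 and DESeq2 0.0634). It was 1.95 without wildtype replicate 5, and 0.11 once the counts of all near-identical copies were added.

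Rps27 has a copy, Rps27rt, a retrogene annotated as protein-coding that the rule on symbols leaves out. Both genes have the same coding sequence, with 0 differences over 255 bases, which is printed here once, since a read from within it cannot be assigned to either gene by sequence. In Rps27 it is spliced from exons within chr3:90212725-90213615 (minus strand) and in Rps27rt it is unspliced at chr9:114982453-114982707 (minus strand), on GRCm38. No base is in capitals, since none differs.
Rps27 and Rps27rt: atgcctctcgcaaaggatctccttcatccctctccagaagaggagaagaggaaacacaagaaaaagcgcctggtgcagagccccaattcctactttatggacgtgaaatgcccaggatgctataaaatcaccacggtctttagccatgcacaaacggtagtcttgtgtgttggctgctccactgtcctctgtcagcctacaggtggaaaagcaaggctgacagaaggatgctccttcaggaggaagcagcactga

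Counts on Rps27 were 236, 201 and 780 in wildtype and 935, 1027 and 607 in Pou4f3(Δ/+). Those on Rps27rt were 1696, 1114 and 562 in wildtype and 684, 651 and 942 in Pou4f3(Δ/+), so that wildtype replicates 3 and 4, with the fewest counts on Rps27, had the most on its copy. Rps27 held 12.2%, 15.3% and 58.1% of the counts on both genes in wildtype and 57.8%, 61.2% and 39.2% in Pou4f3(Δ/+). The sum over both, scaled as CPM, was 113, 91.3 and 78.7 in wildtype and 91.6, 110 and 104 in Pou4f3(Δ/+), with means of 94.2 ± 17.2 and 102 ± 9.41 (SD, n = 3 each). The summed level differed by less than the spread between replicates (exact permutation test, p = 0.6), and was highest in wildtype replicate 3 and lowest in wildtype replicate 5, as was the median of the 82 genes.

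Rpl7a, a 60S protein (chromosome 2 from 26910764 to 26913318), was at 73.9, 87.4 and 68.98 FPKM in wildtype and at 117, 74.2 and 99.1 in Pou4f3(Δ/+). The groups overlapped, and the log2 fold change was 0.34 with a standard error of 0.15 (edgeR, adjusted p = 0.643), or 0.18 without Pou4f3(Δ/+) replicate 1. Its processed copy Rpl7a-ps11, on chromosome X, spans the 801 bases of the coding sequence with 2 differences from it (99.75% identity), at positions 186 and 747 counted from the A of the start codon. The stretch around the first difference, bases 156 to 216, is printed with that base in capitals, as it is all that separates the 2 sequences there. The coding sequence of Rpl7a lies within chr2:26910828-26913269 (plus strand) and the copy at chrX:166854211-166855011 (plus strand).
Rpl7a: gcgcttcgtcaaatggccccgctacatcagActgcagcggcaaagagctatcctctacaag
Rpl7a-ps11: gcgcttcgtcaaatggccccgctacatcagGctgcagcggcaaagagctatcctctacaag
Counts on Rpl7a-ps11 were 28, 4123 and 69 in wildtype and 68, 46 and 39 in Pou4f3(Δ/+). Wildtype replicate 4 alone was high, at 286 CPM for the copy beside 78.4 CPM for Rpl7a. Once the counts of all near-identical copies were added to Rpl7a, the log2 fold change was -0.63 instead of 0.34. How reads were divided between a gene and its copy was not tested, here or for Rps27.

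Near-identical copies were searched among all other listed transcripts (at least 90% identity to a ribosomal protein mRNA over at least 80% of the copy). The search gave 934 symbols that matched 73 of the genes, from 1 copy, as for Rpl14 and Rpl41, to 76 for Rpl21. Copies held 10.2% to 12.3% of the counts on genes and copies in each sample, and the highest value was that of wildtype replicate 4. The median gene kept 94.5% of its counts, and 50 of the 73 kept over 90%. At the other end 6 kept under 50%: Rpl17 (mean of the samples 23.8%), Rps28 (28.4%), Rps12 (31.3%), Rpl21 (35.0%), Rpl41 (39.5%) and Rps27 (40.6%). For these, the level listed under the gene is a part of what its sequence received. Rps12, for example, had 217.9 FPKM on average, while its copy Rps12-ps3, identical over the aligned bases, had 4047 to 5699 counts per sample.

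In most genes the division was alike in all samples: it ranged over less than 5 percentage points in 63 of the 73. It ranged over more than 20 points in 4, which were Rpl7a (20.8% to 76.98%), Rps27 (12.2% to 61.2%), Rps27a (56.2% to 78.9%) and Rpl21 (29.95% to 50.9%). Rps27a, which encodes a fusion of ubiquitin and a 40S protein, was at 121, 76.1 and 73.98 FPKM in wildtype and at 82.9, 128 and 97.8 in Pou4f3(Δ/+). Its log2 fold change was 0.18 with a standard error of 0.21, or 0.45 without wildtype replicate 3 and -0.01 without Pou4f3(Δ/+) replicate 2.

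**Figure D4:**
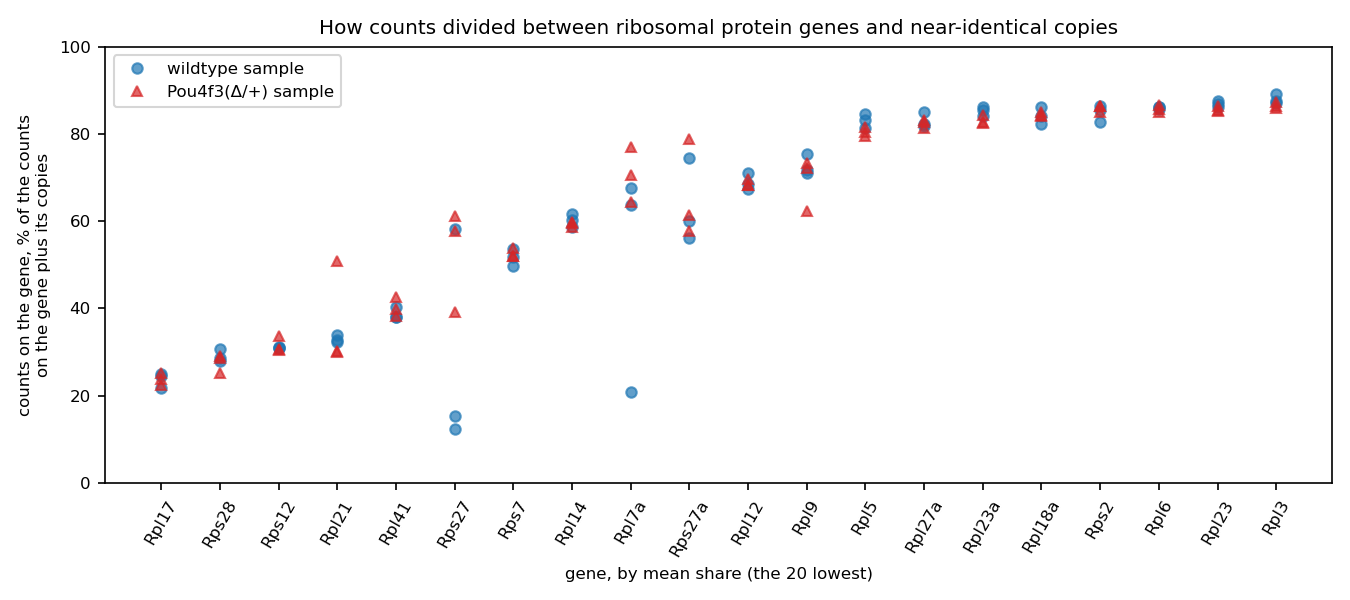
Share of the counts on a gene plus its near-identical copies that was listed under the gene itself (%), for the 20 genes with the lowest mean share; circles are wildtype and triangles Pou4f3(Δ/+) samples. In most genes the 6 points lie close together, whereas those of Rps27 range from 12.2% to 61.2% and those of Rpl7a from 20.8% to 76.98%.

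Rpl21, a 60S protein (chromosome 5 from 146832890 to 146837032), was at 48.6, 47.5 and 41.0 FPKM in wildtype and at 43.8, 47.1 and 78.9 in Pou4f3(Δ/+). Only Pou4f3(Δ/+) replicate 3 was high; the log2 fold change was 0.53 with a standard error of 0.30 (edgeR, adjusted p = 0.664), and 0.03 without that sample. In the same sample a protein-coding transcript of Rpl21 (ENSMUST00000075453) held 975 counts, against 4.27 to 47.4 in the other samples. A transcript with a retained intron (ENSMUST00000135345) held 3.74 counts there and 405 to 473 in the others. Retained-intron models held 2.72% to 2.97% of the counts of all 86 genes in a sample and protein-coding models 95.3% to 95.8%, with overlap between the genotypes in both. Of the other transcript classes, processed transcripts without a coding sequence held 0.417%, 0.446% and 0.458% in wildtype and 0.414%, 0.361% and 0.358% in Pou4f3(Δ/+), without overlap (exact permutation test, p = 0.1, the smallest this design allows; 6 classes compared). Without the transcripts of Rps4l, a choice made after seeing the data, this class held 0.325%, 0.358% and 0.341% in wildtype and 0.325%, 0.299% and 0.305% in Pou4f3(Δ/+), and the genotypes overlapped (exact permutation test, p = 0.2). Processed pseudogene models held 0.236% to 0.259% and 0.219% to 0.236%, so that the genotypes nearly met, with p = 0.1 in the same exact permutation test.

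The remaining 4 of the 10 genes with the smallest p did not separate the genotypes. Rpl37a, a 60S zinc finger protein, was at 124, 149 and 154 FPKM in wildtype and at 152, 160 and 210 in Pou4f3(Δ/+) (log2 fold change 0.29, standard error 0.13; adjusted p = 0.643 in edgeR). Rps13, a 40S protein, was at 59.0, 47.8 and 51.1 against 54.4, 60.7 and 67.8 (0.22, standard error 0.11). In Rpl37a and Rps13 the Pou4f3(Δ/+) sample farthest from wildtype was replicate 3, without which the log2 fold change of Rpl37a was 0.15. Rps6 was at 738, 714 and 684 FPKM against 722, 824 and 777 (0.12, standard error 0.09), and Rpl30, a 60S protein, at 167, 155 and 166 against 160, 189 and 180 (0.12, standard error 0.09); without Pou4f3(Δ/+) replicate 2 these were 0.06 and 0.05. The groups overlapped in FPKM in each of these 4 genes.

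Of the 10 paralogues, 4 were near or at 0. Rpl10l (chromosome 12 from 66283379 to 66284401), the retrogene that stands in for X-linked Rpl10 in male germ cells, had 0 counts in all 6 samples. A count of 0 allows up to 3 counts, or 0.17 to 0.21 CPM in these libraries, as far as counting error goes. Rpl39l (chromosome 16 from 10170226 to 10174911), a paralogue of X-linked Rpl39 known from testis, had 2, 0 and 4 counts in wildtype and 4, 1 and 0 in Pou4f3(Δ/+). Rpl3l (chromosome 17 from 24727820 to 24736143), known from heart and skeletal muscle, had 1, 1 and 1 against 0, 2 and 1. Rps12l1, annotated as a processed pseudogene, had 0, 4 and 2 against 1, 0 and 2. In these 4 genes a difference between the genotypes was not detectable at this depth.

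Their partners were abundant: Rpl39 averaged 86.1 FPKM and Rpl10 averaged 345 FPKM. The coding sequences of Rpl39 (within chrX:37082701-37085127, minus strand) and Rpl39l (chr16:10174310-10174465, plus strand) are printed to show that this pair, unlike Rps27 and Rps27rt, can be told apart by reads. They differ at 23 of 156 bases (85.3% identity), which are in capitals.
Rpl39: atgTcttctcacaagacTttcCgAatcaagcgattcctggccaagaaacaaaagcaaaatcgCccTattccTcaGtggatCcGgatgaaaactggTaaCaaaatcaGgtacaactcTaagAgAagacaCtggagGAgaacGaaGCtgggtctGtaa
Rpl39l: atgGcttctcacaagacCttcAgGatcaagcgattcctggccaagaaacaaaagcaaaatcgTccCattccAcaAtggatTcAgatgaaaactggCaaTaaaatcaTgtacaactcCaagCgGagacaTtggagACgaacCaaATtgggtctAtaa
Markers of the tissues that use these paralogues were low as well. Among germ cell genes Tnp1 and Prm1 had 0 counts in all samples, and the list of Ddx4, Dazl, Tnp1 and Prm1 summed to 0.6997 to 1.76 CPM. The 6 muscle genes (Ckm, Acta1, Myh4, Mb, Myh6 and Tnnt3) summed to 0.786 to 2.93 CPM in 5 samples and to 27.0 in Pou4f3(Δ/+) replicate 3, which had 1 count on Rpl3l.

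The other 6 paralogues had reads listed under them in every sample. Rpl6l and Rps4l among them are annotated as pseudogenes. The search for near-identical copies did not cover the paralogues, and whether reads listed under them came from the partner gene was not tested. Rpl36al (chromosome 12 from 69182731 to 69184083), an autosomal relative of X-linked Rpl36a, was at the level of its partner, with 220, 185 and 193 FPKM in wildtype and 200, 224 and 188 in Pou4f3(Δ/+), beside 225, 190 and 190 and 195, 217 and 247 for Rpl36a. Rps27l, a p53-responsive relative of Rps27, was at 83.3, 64.7 and 71.4 FPKM against 76.1, 74.4 and 77.5. Neither differed between genotypes beyond the spread of the samples, with log2 fold changes of 0.03 (standard error 0.10) and 0.05 (standard error 0.11). Rpl7l1, a nucleolar relative of Rpl7, was at 33.95, 29.98 and 32.0 FPKM against 33.0, 33.4 and 30.1, a log2 fold change of 0.01 with a standard error of 0.08. The pseudogene model Rpl6l averaged 49.7 ± 4.31 and 48.8 ± 2.49 FPKM.

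Rpl22l1, a paralogue of Rpl22 known for its role in blood cell development, was at 21.9, 21.4 and 17.5 FPKM in wildtype and at 16.1, 18.9 and 31.4 in Pou4f3(Δ/+). Pou4f3(Δ/+) replicate 3 was the highest of all samples and replicate 1 the lowest, and the log2 fold change was 0.11 with a standard error of 0.18. Rps4l, annotated as a transcribed processed pseudogene on chromosome 6, was the only gene fitted lower by over 0.25. Its FPKM was 19.0, 16.3 and 20.5 in wildtype and 16.3, 15.3 and 14.96 in Pou4f3(Δ/+), which gave a log2 fold change of -0.30 with a standard error of 0.13 (edgeR, adjusted p = 0.643). Rps4x, the X-linked gene it resembles, was at 507, 465 and 427 FPKM against 442, 528 and 523.

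The share of each paralogue in the FPKM of its pair was compared between genotypes in 10 pairs with a two-sided exact permutation test, whose adjusted p was 1 in all pairs. Rpl36al held 43.2% to 50.8% of its pair, Rpl6l 13.5% to 15.7%, Rpl22l1 8.67% to 14.5%, Rpl7l1 5.82% to 7.14% and Rps4l 2.78% to 4.59%. The widest range was that of Rps27l in its pair with Rps27: 70.2%, 63.3% and 35.6% in wildtype and 33.5%, 28.3% and 39.8% in Pou4f3(Δ/+) (exact permutation test, p = 0.2). With the FPKM of Rps27rt added to that of Rps27, a choice made after seeing the data, Rps27l held 21.8%, 20.8% and 24.8% in wildtype and 23.0%, 19.8% and 21.2% in Pou4f3(Δ/+) (exact permutation test, p = 0.6).

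Besides Rps27rt, 3 ribosomal protein genes whose symbols the rule leaves out overlapped between genotypes in FPKM. Fau, which encodes the precursor of the 40S protein eS30, averaged 331 ± 32.3 FPKM in wildtype and 363 ± 32.1 in Pou4f3(Δ/+). Rack1, a scaffold on the 40S head, averaged 349 ± 36.0 and 365 ± 20.97, and Rps3a1 averaged 515 ± 25.1 and 574 ± 40.6. Of these 3 and Rps27rt, 0 had an unadjusted p under 0.05 in edgeR, where 7.64% of all genes tested did. In CPM, 6.07% of all genes tested were higher in Pou4f3(Δ/+) without overlap and 6.59% lower. A set this small cannot be set apart from those shares.

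Genes around the ribosome also gave 0 adjusted calls in edgeR, as did all 17136 genes tested (0%). Their other counts are to be read against the 49.4% of all genes that were above 0 and the 7.64% with an unadjusted p under 0.05. Of 20 translation factors and other TOP mRNAs, 17 were fitted above 0 (median 0.05), and 1, Vim, had an unadjusted p under 0.05, with 276, 220 and 255 FPKM in wildtype and 204, 196 and 224 in Pou4f3(Δ/+). Tpt1, a TOP mRNA with the next smallest p, was at 880, 830 and 845 FPKM against 924, 1012 and 987. Of 34 ribosome biogenesis factors, 25 were above 0 (median 0.05) and 0 fell below 0.05 before adjustment. First by p came the box C/D snoRNP protein Nop56 and the AAA ATPase Nvl, at log2 fold changes of 0.20 and 0.13.

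Among 13 genes of RNA polymerase I and its factors, 10 were above 0 (median 0.10), where 49.4% of all genes were, and 1, Polr1d, a subunit shared with RNA polymerase III, had an unadjusted p under 0.05, as did 7.64% of all genes. It was at 40.4, 35.5 and 38.9 FPKM in wildtype and at 44.6, 49.1 and 42.1 in Pou4f3(Δ/+) (log2 fold change 0.24, standard error 0.10). Polr1e had the next smallest p, with a log2 fold change of 0.21. Of 17 genes of mTORC1 and Myc, 12 were above 0 (median 0.04), with 1 unadjusted p under 0.05, that of the translation repressor Eif4ebp1, at 16.9, 13.2 and 14.8 FPKM against 19.1, 21.9 and 15.5; Eif4ebp2 followed with a log2 fold change of 0.15. The 7 snoRNA host genes, which are TOP transcripts too, were all above 0 (median 0.21), and Snhg12 and Snhg1 came first by p, with 0 of the 7 below 0.05 before adjustment.

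Those 7 host genes summed to 195, 193 and 163 CPM in wildtype and to 218, 228 and 183 in Pou4f3(Δ/+). Their highest samples were Pou4f3(Δ/+) replicates 1 and 2, the samples that were highest in both B cell and red blood cell markers; whether either had a part in this was not tested.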

How the data were processed

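For each of 6 samples the authors deposited 1 table of 128603 transcripts. Per the file headers it holds an expected count, an estimate that need not be whole and is not normalized, and FPKM, which the authors scaled to transcript length and to the counts of the sample. The submitters' processing notes name the build mm8 and DESeq2; the aligner and the program that estimated the counts are not given in the sources used here. Transcript models and coordinates were taken from GENCODE M21 (GRCm38) by transcript identifier, and start sequences from RefSeq.

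Counts and FPKM were summed per symbol with Python 3.11.15 (pandas 2.3.3). Rounded counts were tested with edgeR 4.0.16 in R 4.3.3: filterByExpr (minimum count 10, minimum total 15), TMM and quasi-likelihood tests between the genotypes without covariates, with Benjamini-Hochberg adjustment over all genes. Depth was 14295069 to 17696784 counts per sample, and floors cover counting error only, since reads carry no molecular identifiers. The edgeR test was checked on simulated data. Copies were found with blastn 2.17.0 among transcripts of at least 150 bases. Single values were compared with exact permutation tests (SciPy 1.17.1). Alternatives were DESeq2 1.42.0, its size factors, total counts, TMM without these genes, no filter, limma 3.58.1 on log2(FPKM + 0.1, 0.5 or 1), copies added, and samples left out.

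The genes and lists were chosen with earlier results of these data known. Those named are the paralogues and their partners, the 5 highest and 5 lowest by FPKM, the 10 with the smallest p, the P stalk, Rpsa and 8 with well known roles. For each list of other genes, the 2 with the smallest p are named. Some items of these lists are not reported here.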

Additional observations from a re-analysis of the deposited data

How the results depend on the processing

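Reads that match a gene and its copy equally cannot be assigned by sequence, and how the expected counts treated them is not given in the sources used here. At 3 samples a group, an exact permutation test cannot fall below p = 0.1. No paired analysis was possible because the groups share a single replicate number. Of the 82 tested genes (85 with no filter), the number past an adjusted p of 0.05 was 0 under every alternative run, and also at 0.1, except that at 0.1 there was 1 (of 10 among all 18106 genes) when Pou4f3(Δ/+) replicates 1 and 2 were both left out, where the lone sample is assumed to vary like wildtype. Over all genes the number past 0.05 was 64 with DESeq2, 9 with no filter, 1 with limma-trend on log2(FPKM + 0.1), 3 without wildtype replicate 4, 193 (1.10%) without Pou4f3(Δ/+) replicate 3, 6 without Pou4f3(Δ/+) replicates 1 and 2, and 0 in the others; past 0.1 it was 87, 58 and 535 with DESeq2, with no filter and without Pou4f3(Δ/+) replicate 3. The number of them with an unadjusted p under 0.05 was 5 with no filter (5.88%, against 6.999% of all genes), 4 with -ps counts added to the parent (4.88% against 7.68%), 5 without Pou4f3(Δ/+) replicates 1 and 2 (6.10% against 3.62%), and 2 to 6 with each sample left out in turn: 6 without wildtype replicate 3 (7.32% against 6.50%), 4 without Pou4f3(Δ/+) replicate 1 (4.88% against 4.46%), 3 without wildtype replicate 4, wildtype replicate 5 or Pou4f3(Δ/+) replicate 2 (3.66% against 6.13%, 4.33% and 4.21%) and 2 without Pou4f3(Δ/+) replicate 3 (2.44% against 17.4%). The causes were not tested. The median log2 fold change ranged from 0.01 to 0.14 with each sample left out, and the difference in the share of counts from 0.0185 to 0.164 percentage points. The change of Rpl7a was -0.85 with -ps counts added and -0.63 with all near-identical copies added. Without Pou4f3(Δ/+) replicates 1 and 2, Rpl36al was at -0.11 and Rpl7l1 at -0.11. With each sample left out in turn, signs changed in 48 of the 82 genes; among the 10 with the smallest p and the 5 other tested paralogues they changed for Rpl22l1 (-0.11 to 0.23), Rps27l (-0.030 to 0.158), Rpl36al (-0.052 to 0.111), Rpl7l1 (-0.038 to 0.067) and Rpl6l (-0.095 to 0.021). Rps27 ranged from 0.84 to 1.95 (without wildtype replicate 5). The genotype difference in the share of a pair, in percentage points, changed sign for Rpl22l1 (-1.61 to 1.30), Rpl36al (-2.76 to 1.03), Rpl39l (-0.162 to 0.0529), Rpl3l (-0.0147 to 0.00281), Rpl6l (-0.978 to 0.00969) and Rps12l1 (-0.147 to 0.00409), and for Rpl3l also with counts in place of FPKM (2.0e-05).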
